A study of Mus musculus with 8 samples.

Results

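The 10 genes described here, Nkx2-5, Gata4, Gata5, Gata6, Mef2c, Srf, Myocd, Irx4, Smyd1 and Prdm16, encode regulators of transcription that are central to building heart muscle. They were chosen by name, and all 10 were found among the 23420 genes of the raw count table and passed the filter on low counts that left 14861 genes for testing. RNA came from branchial (pharyngeal) arches dissected together with the looping heart of single mouse embryos at 10.5 dpc (days post coitum), from 4 Pygo2 wild-type embryos and 4 Pygo2 mutant littermates. The labels name neither the allele nor the strain, so nothing can be said about which part of Pygo2 the mutants lack. The study it comes from asked how the Wnt pathway cofactors Bcl9 and Pygo act in heart development. Library totals were 20823890 to 28175968 counts. Pygo2 itself was at 44.6 to 56.2 CPM (read counts scaled to a common library size) in the wild-type libraries and at 17.3 to 22.0 CPM in the mutant libraries, without overlap.

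Cardiac muscle identity rests on a set of transcription factors that bind each other and switch on each other's genes as well as those of the contractile apparatus. Nkx2-5, a homeodomain protein, and the zinc finger proteins Gata4, Gata5 and Gata6 act at the top of this network. Srf and Mef2c are related MADS-box proteins, and Myocd is a coactivator that has no DNA contact of its own and works through Srf. Irx4 is a homeodomain factor of the ventricles, Smyd1 a muscle-restricted histone methyltransferase, and Prdm16 a zinc finger regulator of compact ventricular muscle that is also active in other tissues, craniofacial mesenchyme among them. Because the dissection mixed heart with arches, the level of such a gene in a library depends on how much heart that library holds, and fewer cardiac cells cannot be told apart from less RNA per cell. Heart content was therefore followed in each library as the geometric mean CPM of Myh6, the alpha myosin heavy chain, and Tnnt2, cardiac troponin T.

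Heart content differed far more between embryos of the same genotype than between genotypes. It was 796, 796, 333 and 340 CPM in wild-type embryos 1 to 4 and 1162, 763, 377 and 357 CPM in mutants 1 to 4. Embryos numbered 1 and 2 were thus high and those numbered 3 and 4 low in both genotypes, with no library between 377 and 763 CPM, and mutant 1 was the highest of all. On the log2 scale wild-type embryos averaged 9.02 ± 0.716 and mutant embryos 9.20 ± 0.824 (SD, 4 embryos per genotype), a difference of 0.18 that lay within the spread (two-sided exact permutation p = 0.571, over 70 assignments). The mutant was higher than the wild-type embryo of the same number in 3 of 4 pairs, and without mutant 1 the difference was -0.14.

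Other tissues of the dissection moved along with this division. The summed level of 6 neural markers (Sox2, Pax6, Neurod1, Elavl3, Elavl4 and Tubb3) was 37.2, 87.2, 398 and 113 CPM in wild-type embryos 1 to 4 and 26.9, 125, 482 and 404 CPM in the mutants, so it was lowest in the embryos numbered 1 and highest in 3 of the 4 with little heart, with all 6 markers detected. The 5 epicardial markers, none of them at 0, summed to 67.4 to 203 CPM in wild-type and 57.4 to 176 CPM in mutants. Markers of the arches were present throughout, with 7 genes of arch mesenchyme and neural crest summing to 212 to 367 CPM in wild-type and 196 to 273 CPM in mutants. Heart content, neural content and embryo number cannot be told apart as the source of a difference between embryos 1 and 2 and embryos 3 and 4.

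The 3 Gata factors and Nkx2-5 were higher in the libraries with more heart, and Nkx2-5 followed heart content most closely. Nkx2-5 (ENSMUSG00000015579.5, chromosome 17 from 26838664 to 26845009 on the minus strand, mm10) was at 18.2, 20.7, 8.46 and 7.85 CPM in wild-type embryos 1 to 4 and at 28.2, 17.6, 8.82 and 7.04 CPM in mutants. Every embryo numbered 1 or 2 lay above every embryo numbered 3 or 4, and the genotypes overlapped. Its level varied 4.01-fold over the 8 libraries, whereas its level per 1000 CPM of heart content varied only 1.32-fold, from 19.7 to 26.0 CPM. That was the narrowest such range of the 10 genes.

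Gata4 (ENSMUSG00000021944.15, chromosome 14 from 63198922 to 63271692 on the minus strand), a partner of Nkx2-5 on many cardiac promoters, was at 69.4, 62.8, 26.9 and 31.4 CPM in wild-type embryos and at 78.4, 66.3, 24.3 and 24.9 CPM in mutants. Its level relative to heart content ran from 64.4 to 92.3 CPM per 1000, and the 3 lowest values were those of mutants 3, 1 and 4, while mutant 2, at 86.9, lay inside the wild-type range of 79.0 to 92.3. Gata6 (ENSMUSG00000005836.10, chromosome 18 from 11052064 to 11085635 on the plus strand), a paralog that overlaps Gata4 in function, was at 47.0, 44.6, 16.7 and 22.2 CPM in wild-type and 40.9, 47.3, 15.9 and 13.4 CPM in mutants. Relative to heart content the same 3 mutants were again lowest, with mutants 1, 4 and 3 at 35.2, 37.4 and 42.1 CPM per 1000 and mutant 2 at 62.0, against 50.04 to 65.3 in wild-type. Gata5 (ENSMUSG00000015627.5, chromosome 2 from 180325133 to 180334699 on the minus strand), best known in the endocardium and epicardium, was at 41.8, 31.3, 11.4 and 19.5 CPM in wild-type and 28.2, 37.9, 13.1 and 14.1 CPM in mutants. Relative to heart content Gata5 varied 2.37-fold, from 24.2 CPM per 1000 in mutant 1 to 57.3 in wild-type 4, against 1.43-fold for Gata4 and 1.86-fold for Gata6. Gata5 did not share the order of the other Gata genes, as wild-type 3, at 34.2, lay below mutants 3, 4 and 2, at 34.8, 39.5 and 49.6. In mutant 1, the library with the most heart, Gata5 and Gata6 were lower than in mutant 2.

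Myocd (ENSMUSG00000020542.18, chromosome 11 from 65176561 to 65269989 on the minus strand), the Srf coactivator, was at 39.7, 33.7, 16.3 and 14.0 CPM in wild-type and at 61.3, 47.1, 17.3 and 20.9 CPM in mutants. It was the only one of the 10 genes that was higher in the mutant in 4 of 4 same-number pairs, by 0.62, 0.48, 0.09 and 0.57 on the log2 scale; 6.27% of all tested genes had that pattern. None of the 10 was lower in all 4 pairs, which held for 5.88% of tested genes. Srf (ENSMUSG00000015605.6, chromosome 17 from 46548329 to 46556175 on the minus strand), which nearly all cells express, was at 54.0, 68.9, 32.3 and 33.5 CPM in wild-type and 69.5, 41.1, 27.7 and 33.0 CPM in mutants. Mutant 2, at 41.1 CPM, had the lowest Srf level among the 4 libraries with high heart content, and the groups overlapped.

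Mef2c and Prdm16 changed least between libraries rich and poor in heart. Mef2c (ENSMUSG00000005583.16, chromosome 13 from 83504034 to 83667080 on the plus strand), which neural crest, endothelium and skeletal muscle also use, was at 84.3, 82.3, 57.8 and 66.7 CPM in wild-type and 76.0, 96.9, 60.1 and 72.9 CPM in mutants, a 1.68-fold range. Prdm16 (ENSMUSG00000039410.16, chromosome 4 from 154316125 to 154636873 on the minus strand) was at 25.9, 23.5, 20.1 and 25.2 CPM in wild-type and 43.5, 24.4, 19.8 and 22.9 CPM in mutants. Apart from mutant 1, its libraries lay between 19.8 and 25.9 CPM. Relative to heart content both genes were therefore highest where heart was scarce: Mef2c reached 204 CPM per 1000 in mutant 4 and was at 65.4 in mutant 1.

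Irx4 and Smyd1 represent ventricular identity and muscle chromatin. Irx4 (ENSMUSG00000021604.15, chromosome 13 from 73260479 to 73269608 on the plus strand) was at 7.36, 11.7, 6.26 and 7.17 CPM in wild-type and at 26.2, 9.54, 5.16 and 7.91 CPM in mutants. Mutant 1 had the highest level, with 628 Irx4 counts against 128 to 276 in the other 7 libraries. Relative to heart content mutant 1 was at 22.6 CPM per 1000, beside 22.1 in mutant 4 and 21.1 in wild-type 4, both with little heart. The other libraries with high heart content were lower, at 9.25 in wild-type 1, 14.7 in wild-type 2 and 12.5 in mutant 2. In mutant 1 the ventricular light chain Myl2 was at 1644 CPM, against 498 to 1160 CPM elsewhere, and Myh7 at 3767 CPM, against 762 to 2345 CPM elsewhere. Relative to heart content both lay inside the range of the other libraries. Myl2 was at 1414 CPM per 1000, within 1239 to 1871, and Myh7 at 3242, within 1936 to 4233. Among the libraries with high heart content Myh7 was highest in mutant 1, followed by mutant 2 at 3071. The part of ventricle in this Irx4 level was not tested. Smyd1 (ENSMUSG00000055027.17, chromosome 6 from 71213940 to 71322233 on the minus strand) was the most abundant member and was at 174, 194, 103 and 114 CPM in wild-type and 237, 190, 118 and 92.7 CPM in mutants, again high in all embryos numbered 1 and 2.

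**Figure D1:**
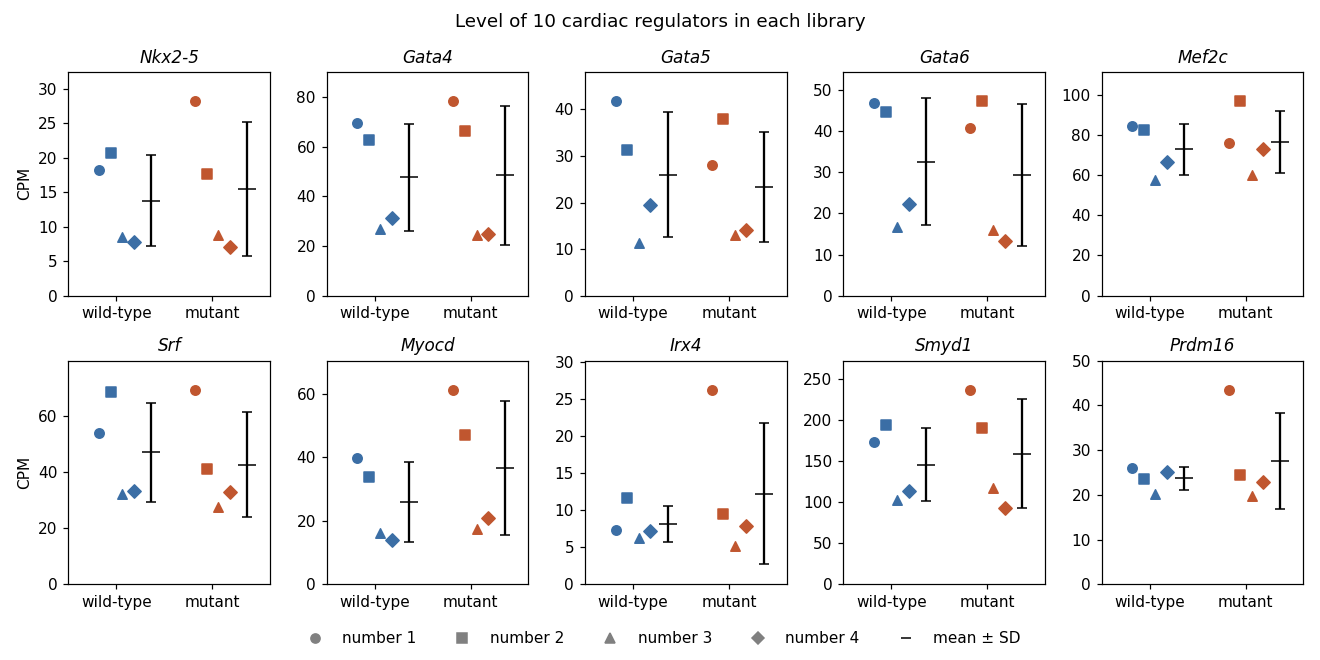
Level of each of the 10 genes in every library, in CPM on a linear axis from 0, by genotype; the marker shape gives the embryo number and the black bars the mean ± SD of 4 libraries. The circles and squares (numbers 1 and 2) lie above the triangles and diamonds (3 and 4) for 8 of the 10 genes, and Irx4 and Prdm16 are highest in mutant 1, at 26.2 and 43.5 CPM.

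Compared per length of exonic sequence in the GENCODE annotation, the wild-type levels spanned 32.1 ± 9.81 CPM per kilobase for Smyd1 to 2.54 ± 0.279 for Prdm16 (SD, n = 4 each). Srf followed Smyd1 at 16.3 ± 6.08, then Gata4 at 12.2 ± 5.53, Nkx2-5 at 8.02 ± 3.84 and Gata5 at 7.94 ± 4.07 CPM per kilobase. Gata6 was at 5.01 ± 2.37, Mef2c at 4.63 ± 0.809, Myocd at 4.04 ± 1.98 and Irx4 at 3.11 ± 0.930 CPM per kilobase. Only the step from Smyd1 to Srf exceeded the SD of both neighbours; the other adjacent genes were within the larger SD of the pair. Exonic length joins all annotated transcripts, which lowers the value of genes with many isoforms such as Mef2c (15715 bases) against Nkx2-5 (1719 bases).

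RefSeq promoter windows of 300 bases, from 250 before to 50 after the transcription start (GRCm38.p6), were searched for 7 of the 10 genes, with 9 windows in all. Gata4 and Myocd had no window, and Gata6 was left out of the search. The windows of Srf and Smyd1 are shown because Srf, with Myocd, acts through the CArG box and because the Smyd1 window holds a match to the motif of Nkx2-5, the member it ran most nearly parallel to. Each is printed 5′ to 3′ on the strand of its gene, and capitals mark motif matches.
Srf, chr17:46556113-46556412, minus strand: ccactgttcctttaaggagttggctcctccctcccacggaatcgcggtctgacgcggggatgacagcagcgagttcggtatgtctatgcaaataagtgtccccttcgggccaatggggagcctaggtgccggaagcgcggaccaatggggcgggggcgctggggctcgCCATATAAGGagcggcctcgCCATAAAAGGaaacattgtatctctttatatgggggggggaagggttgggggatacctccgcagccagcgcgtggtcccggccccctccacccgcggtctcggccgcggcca
Smyd1, chr6:71262232-71262531, minus strand: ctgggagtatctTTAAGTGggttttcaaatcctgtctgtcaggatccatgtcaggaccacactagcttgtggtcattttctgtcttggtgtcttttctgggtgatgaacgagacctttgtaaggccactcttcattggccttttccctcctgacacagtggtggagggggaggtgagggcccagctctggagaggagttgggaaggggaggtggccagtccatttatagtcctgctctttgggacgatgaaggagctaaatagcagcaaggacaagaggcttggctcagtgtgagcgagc

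The Srf window held 2 CArG boxes, CCATATAAGG starting 82 bases and CCATAAAAGG starting 62 bases before the transcription start, and 1.63% of all 32851 promoter windows held at least 1. The Smyd1 window held the Nkx2-5 motif TNAAGTG once, at 238 bases before the start, a match present in 11.5% of windows; the Prdm16 window held it too. Both strands were searched, and no other match to these motifs, to the MEF2 box (3.19% of windows) or to the GATA motif (GATA with A or T before it and A or G after it, in 29.8% of windows) lay in the 9 windows. These matches describe letters in a short window and do not show that a factor binds there.

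How far each gene tracked heart content was estimated as a slope, the change in log2 CPM per unit of log2 heart content, with genotype in the same model. A gene whose RNA kept a constant ratio to Myh6 and Tnnt2 would have a slope of 1. By the quasi-likelihood test of edgeR 9 of the 10 genes rose with heart content at an adjusted p under 0.05, while 17.2% of all tested genes did so and a further 15.8% fell. All 10 had an unadjusted p under 0.05, against 45% of tested genes. Nkx2-5 (slope 1.06, SE 0.08, edgeR adjusted p = 0.000103), Myocd (1.04, SE 0.09), Gata6 (1.03, SE 0.14) and Gata4 (1.02, SE 0.08) were near a constant ratio. Gata5 was at 0.90 (SE 0.18) and Irx4 at 0.82 (SE 0.20).

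For the other 4 genes the 95% interval of the slope lay below 1. Srf had a slope of 0.69 (interval 0.49 to 0.88) and Smyd1 of 0.68 (0.54 to 0.83). Prdm16 had a slope of 0.36 (0.09 to 0.63, edgeR adjusted p = 0.0430), and Mef2c, at 0.26 (0.05 to 0.47, edgeR adjusted p = 0.0540), was the member that was not called. The order depends on what stands for heart: with the mean of 20 contractile genes as the measure, the intervals of Srf (0.59 to 1.19) and Smyd1 (0.76 to 1.09) held 1, while those of Mef2c (0.06 to 0.62) and Prdm16 (0.07 to 0.83) remained below it, and those of Nkx2-5 (1.20 to 1.65), Gata4 (1.07 to 1.63), Gata6 (1.02 to 1.77) and Myocd (1.03 to 1.67) lay above it. With that measure Prdm16 was no longer called (edgeR adjusted p = 0.0746).

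**Figure D2:**
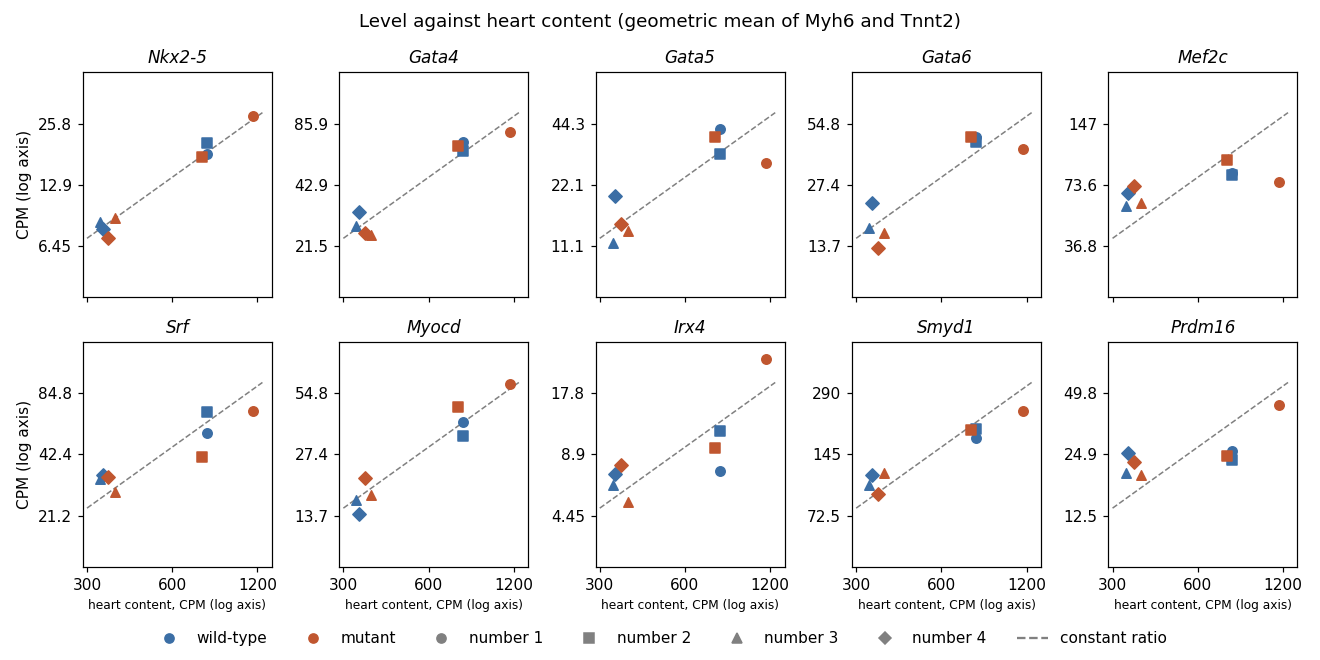
Level of each gene in CPM against heart content in CPM, both on log axes; colour gives genotype, marker shape the embryo number, and the dashed line a constant ratio to heart content. Nkx2-5 and Gata4 lie close to the line, Mef2c and Prdm16 run flatter, and no library lies between heart contents of 377 and 763 CPM.

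These slopes rest on the contrast of embryos 1 and 2 with embryos 3 and 4. Because the libraries form separate sets of 4, no correlation of the genes with heart content was computed. For 8 of the 10 genes all libraries numbered 1 and 2 lay above all those numbered 3 and 4, a pattern of 14.6% of tested genes. The ratio of mean CPM between the sets was 2.65 for Myocd, 2.64 for Gata6, 2.63 for Nkx2-5, 2.58 for Gata4 and 2.39 for Gata5, next to 2.53 for Myh6 and 2.48 for Tnnt2. It was 2.07 for Irx4, 1.86 for Smyd1, 1.85 for Srf, 1.33 for Prdm16 and 1.32 for Mef2c. With embryo number as a replicate block, which leaves only the differences within same-number pairs, 0 of the 10 genes and 0 of all genes were called for heart content by edgeR. The slope of Myocd was then 0.22 (SE 0.47), that of Gata4 0.41 (SE 0.47), that of Prdm16 1.35 (SE 0.46) and that of Irx4 3.54 (SE 0.77).

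Within the pairs only number 1 differed widely in heart content, by 0.55 on the log2 scale in favour of the mutant, against -0.06, 0.18 and 0.07 in the others. The 2 genes of the measure were unequal in pair 1, with Tnnt2 higher in the mutant by 0.84 and Myh6 by 0.26. In that pair Irx4 differed by 1.82, Prdm16 by 0.74, Nkx2-5 by 0.63, Myocd by 0.62, Smyd1 by 0.45 and Srf by 0.36 on the log2 scale, all higher in the mutant. Gata4 differed by 0.18, whereas Mef2c, Gata6 and Gata5 were lower in mutant 1 than in wild-type 1 (-0.15, -0.20 and -0.57). Without mutant 1 the slope of Irx4 was 0.43 (edgeR adjusted p = 0.139) and that of Prdm16 0.12 (adjusted p = 0.420). Neither was then called, while Mef2c was, at 0.39 (adjusted p = 0.0264).

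**Figure D3:**
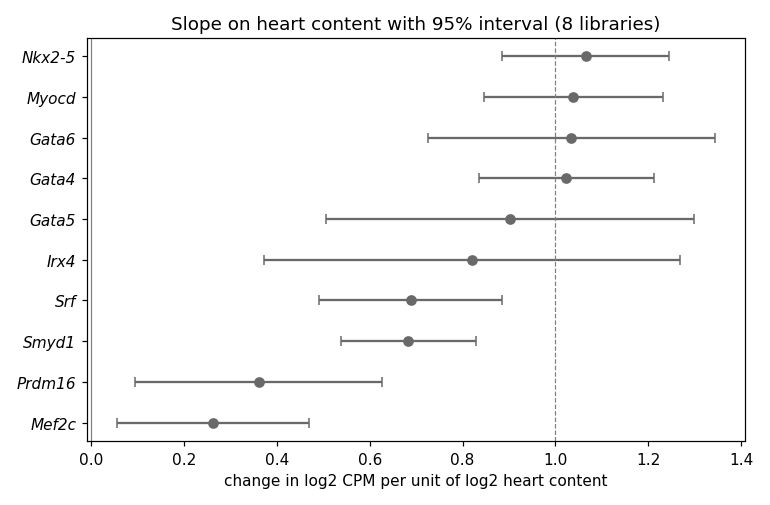
Slope of each gene on heart content (change in log2 CPM per unit of log2 heart content) with its 95% interval from the fit to 8 libraries; the dashed line at 1 marks a constant ratio to Myh6 and Tnnt2. Nkx2-5 is highest at 1.06 and Mef2c lowest at 0.26.

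No difference between mutant and wild-type embryos was called for any of the 10 genes. By edgeR's quasi-likelihood test 0 of 10 passed an adjusted p of 0.05, against 0.00673% of all tested genes (1 gene, Pygo2); 0 had an unadjusted p under 0.05, against 1.3%, and 0 were without overlap, against 1.04%. DESeq2 called 0 of them as well. Of the 10 log2 fold changes 7 were above and 3 below 0, with a median of 0.10, beside a median of 0.00 over all tested genes. The largest were those of Irx4 (0.59, interval -0.46 to 1.63) and Myocd (0.50, interval -0.55 to 1.55). The intervals of Nkx2-5 (0.16, interval -0.92 to 1.24), Gata4 (0.02, interval -0.998 to 1.05), Gata5 (-0.16, interval -1.16 to 0.84) and Gata6 (-0.15, interval -1.21 to 0.91) were wide on both sides of 0. Moderate changes of these 4 genes in either direction were not detectable by this fit, where their SEs were 0.48, 0.45, 0.44 and 0.47. With embryo number as a replicate block the SEs were 0.16, 0.11, 0.16 and 0.14. The log2 fold changes were then 0.08, -0.05, -0.14 and -0.22, and 0 of the 10 genes were called. In that blocked fit Myocd was at 0.45 (SE 0.11, edgeR unadjusted p = 0.00364, adjusted p = 0.926). The share of all tested genes under an unadjusted 0.05 with the block was not computed. With genotype alone Mef2c had the narrowest interval (0.07, from -0.31 to 0.46). In the authors' deposited table all 10 genes have a false discovery rate of 1, with log2 fold changes from -0.15 for Gata5 to 0.59 for Irx4.

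At equal heart content the intervals became narrower, and 0 of the 10 genes passed, against the same 0.00673% of all tested genes. Nkx2-5 was at -0.12 on the log2 scale (interval -0.36 to 0.13) and Smyd1 at -0.04 (-0.24 to 0.15). Srf was at -0.28 (interval -0.55 to -0.01, unadjusted p = 0.0432, edgeR adjusted p = 0.848) and Myocd at 0.26 (interval 9.07e-05 to 0.52, unadjusted p = 0.0499, edgeR adjusted p = 0.848). These were 2 of 10 genes under an unadjusted 0.05, against 5.69% of all tested genes. Gata4, Gata5 and Gata6 were all below 0, at -0.24 (-0.49 to 0.01), -0.30 (-0.81 to 0.21) and -0.39 (-0.79 to 0.01), and none of them passed. Mef2c was at 0.03 (-0.24 to 0.31), Prdm16 at 0.10 (-0.27 to 0.48) and Irx4 at 0.24 (-0.41 to 0.88). Over all 10 the median was -0.08, beside 0.00 over all tested genes.

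These values depended on the measure of heart content. With the 20 contractile genes as the measure, 0 genes passed by edgeR, but 5 of the 10 had an unadjusted p under 0.05, against 7.48% of all tested genes, and all 5 were lower in mutants. Gata6 was then at -0.60 on the log2 scale (interval -0.98 to -0.22), Gata4 at -0.42 (-0.71 to -0.14), Nkx2-5 at -0.31 (-0.54 to -0.07), Srf at -0.38 (-0.70 to -0.07) and Smyd1 at -0.17 (-0.34 to -0.0046). Their edgeR adjusted p-values were 0.644 to 0.656. Myocd moved to 0.08 (interval -0.25 to 0.41, unadjusted p = 0.597), so only Srf was under an unadjusted 0.05 with both measures. The contractile measure itself was higher in mutants by 0.27 on the log2 scale (two-sided exact permutation p = 0.486), against 0.18 for Myh6 with Tnnt2. Of its 20 genes 19 were higher in mutants with genotype alone, beside 7430 of all 14861 tested genes, and 0 were called. At equal content of Myh6 and Tnnt2 13 were higher and 7 lower. The part of this in the lower values of the 5 genes was not tested.

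**Figure D4:**
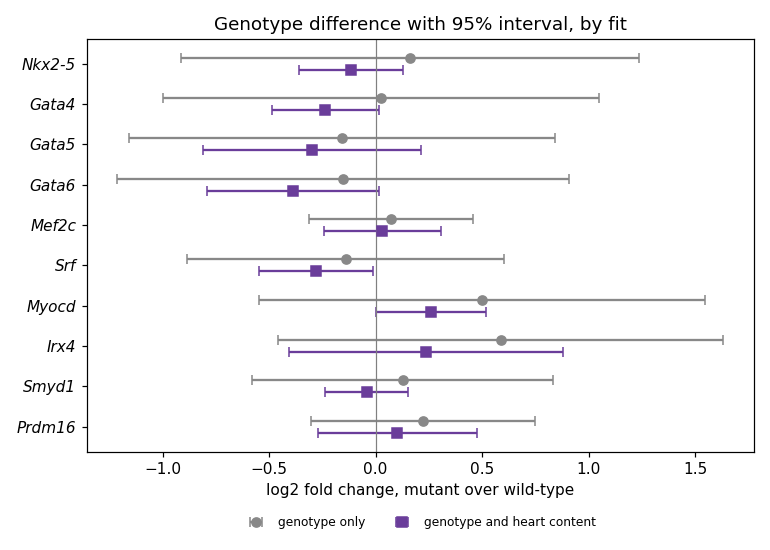
Log2 fold change of mutant over wild-type for each gene with its 95% interval, from the fit with genotype alone (grey circles) and from the fit with genotype and heart content (purple squares). Adding heart content narrowed the intervals, for Nkx2-5 from -0.92 to 1.24 down to -0.36 to 0.13.

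Other genes of the cardiac network gave the setting for these values. Of 29 further cardiac transcription factors 15 were higher and 14 lower in mutants, 0 passed the genotype test, and 18 rose with heart content (median slope 0.44, beside 0.00 over all tested genes). Among them Tbx20, a T-box partner of Nkx2-5 and Gata4, had a slope of 0.95 (SE 0.05). At equal heart content the smallest p-values of this list belonged to Hand2, a factor of right ventricle and arches, at -1.06 on the log2 scale (SE 0.17), and Tbx2, a repressor of chamber genes, at -0.69 (SE 0.12), both with an edgeR adjusted p of 0.596.

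Cofactors and paralogs of the members mostly varied less with heart. Of 25 tested, 11 rose and 1 fell with heart content (median slope 0.19), and 13 were higher and 12 lower in mutants with 0 called. Zfpm1, a cofactor of Gata proteins, had a slope of 1.13 (SE 0.19) and Mef2d, a paralog of Mef2c, of 0.73 (SE 0.10). Irx1, a paralog of Irx4, had the smallest genotype p of the list, at a log2 fold change of -0.65 (SE 0.34, edgeR unadjusted p = 0.0836).

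Genes that the members are known to activate were counted next. Of 17 targets of Srf with Myocd 11 rose with heart content (median slope 0.54), among them Des, the muscle intermediate filament desmin (0.80, SE 0.07), and the actin gene Acta1 (0.94, SE 0.12). Of 12 targets of Nkx2-5 and Gata4, leaving out Myh6, Smyd1 and Myocd, which are part of the heart measure or among the 10 genes, 11 rose (median slope 0.62). In the genotype test 9 of the 17 and 9 of the 12 were higher in mutants, beside 7430 of all 14861 tested genes. By edgeR 0 genes were called in either list. Nppa, which encodes atrial natriuretic peptide, had a log2 fold change of 0.36 (SE 0.26) between genotypes and was not called.

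Genes of the ventricle and of the atrium were counted separately. Of 8 ventricular genes other than Irx4, 6 rose with heart content (median slope 0.69), and of 9 tested atrial genes 4 did (median slope 0.46). By edgeR 0 genes of either list were called between genotypes. Myh7 was at 0.55 on the log2 scale at equal heart content (SE 0.14, edgeR adjusted p = 0.848).

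Endothelial and epicardial cells of the heart also express Gata factors. Of 7 endothelial and endocardial markers 5 rose with heart content, including Npr3 of the endocardium (slope 0.85, SE 0.08), and of 5 epicardial markers 4 did, including Upk3b (1.39, SE 0.16). Pharyngeal endoderm, another site of Gata expression, had 0 of 7 markers rising. All 6 neural markers fell with heart content (median slope -1.97), and 0 of 7 arch mesenchyme and neural crest markers were called in either direction. Between genotypes edgeR called 0 genes of these lists. All 5 epicardial and all 7 arch markers were lower in mutants, beside 7431 of all 14861 tested genes. Their medians at equal heart content were -0.67 and -0.54 on the log2 scale. Among the neural markers 5 were higher and 1 lower, with a median at equal heart content of 0.90. Of the endothelial markers 3 were higher and 4 lower, and of the endodermal markers 2 were higher and 5 lower. The part of these tissues in the levels of the 10 genes, the lower Gata values at equal heart content included, was not tested.

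The genes whose log2 CPM ran most nearly parallel to each member over the 8 libraries were taken from 9881 candidates with a mean of at least 10 CPM, by Pearson's r. All 8 points share the division by embryo number, so high values of r are common and are given as a description. Nkx2-5 was most like Olfml2b (r = 0.999), Rbm24 (0.994) and Cap2 (0.993), and Rbm24, a muscle splicing factor, was also among the 3 genes most like Smyd1 (0.993). Gata5 was most like Aldh1a1 (0.992), Thbd, the endothelial thrombomodulin (0.983), and Tbx5, a T-box factor of atria and left ventricle (0.982). Mef2c was most like Mkl2, an Srf coactivator related to Myocd (0.968), Pcdh17 (0.955) and Nrp1, a receptor on endothelium and neurons (0.952).

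The remaining members had other nearest genes. Gata4 was most like Entpd1 (r = 0.990), Acvr1, a BMP receptor (0.989), and Bach2 (0.989), and Gata6 was most like Myo1d (0.986), Nfib (0.984) and the calcium channel gene Cacna1d (0.982). Myocd was most like Syne1 (0.996), Tnks (0.992) and Cacnb2 (0.988), Srf like N4bp1 (0.997), Mesdc1 (0.995) and Rest (0.994), and Smyd1 first like Tmem38a, a channel of the sarcoplasmic reticulum (0.994). Irx4 was most like Kank4 (0.988), Map7d1 (0.979) and Ncs1 (0.976), and Prdm16 like Mcoln1 (0.979), Zfp703 (0.978) and Map1s (0.976). Among the members themselves r was highest for Nkx2-5 with Smyd1 (0.986) and Gata4 with Gata6 (0.974), and lowest for Mef2c with Prdm16 (0.359).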

How the data were processed

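Per the labels' protocols, tissue was frozen in liquid nitrogen, RNA was extracted with TRIzol, and stranded total RNA libraries were made with a TruSeq kit and RiboZero from 300 ng of RNA. The submitters' processing notes name mm10 and the tools TopHat2 (2.0.11), HTSeq (0.6.1) and edgeR (3.14). For the annotation and the strand setting of the counting, the sources used here give nothing. Gata5, Gata6, Prdm16 and Myh6 share exonic bases with an antisense gene, by 258, 93, 109 and 114 bases, so their counts may include reads of the other strand's gene.

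The authors deposited raw counts per gene, and these counts are the basis of all values here except the log2 fold changes and false discovery rates (adjusted p-values) quoted from the authors' deposited table. The deposited scaled table was not used.

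Genes were kept by filterByExpr of edgeR 4.0.16 (R 4.3.3), scaled with TMM and tested with glmQLFit and glmQLFTest (two-sided), with Benjamini-Hochberg adjustment over all 14861 genes and 0.05 as the threshold. Tests were run with genotype alone and with genotype and heart content, the mean log2 CPM (prior count 2) of Myh6 and Tnnt2. Intervals are 95% intervals from the standard error and the moderated degrees of freedom. The scripts were tested on simulated data. The common coefficient of variation between embryos was 26.3%; p-values measure the spread between single embryos. DESeq2 1.42.0 was an alternative, with others listed at the end. Mrtfa and Mrtfb appear in the count table as Mkl1 and Mkl2.

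The labels number both groups 1 to 4. The main tests left the libraries unpaired, and the block by embryo number was run as an alternative. Deviations from the group means correlated between same-numbered libraries at 0.556, 0.185, 0.676 and 0.186 across genes, each above the 0.1 set for treating the numbers as pairs. Libraries of different number within the same set correlated about as well (0.482 and 0.427 between numbers 1 and 2, 0.628 and 0.253 between 3 and 4), so this may show only the division of 1 and 2 from 3 and 4; the labels do not say what the numbers mark. Named genes are all 10 members, and per other list the genes called, up to 4, or the 2 with the smallest p, not all of which are printed. Members and lists were chosen with earlier results of these data known. Promoter sequences and gene positions come from RefSeq (GRCm38.p6) and GENCODE M21.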

Additional observations from a re-analysis of the deposited data

How the results depend on the processing

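In every alternative 0 of the 10 genes were called between genotypes (12 alternatives) or at equal heart content (11). At most 1 of all tested genes was called in any of these. The count called for heart content was 8 to 10 in 14 of 15 alternatives, 8 to 9 without single libraries, and 0 with the replicate block. In those 14 the share of all tested genes called, rising or falling, was lowest without mutant 1, at 2219 of 15164. It was highest with Tnnt2 alone as the measure, at 5071 of 14861, and the block called 0 of 14861. With the block the slopes of Nkx2-5, Srf and Smyd1 were 1.48, 1.56 and 0.99. The block reversed the slopes of Gata5 (-1.10), Gata6 (-0.070) and Mef2c (-0.62), the fold change of Gata4 (-0.054) and the fold changes at equal heart content of Gata5 (0.058), Irx4 (-0.28) and Prdm16 (-0.085); with the contractile measure that of Mef2c was -0.013. The cause was not tested. With the block Myocd was at 0.45 on the log2 scale (unadjusted p = 0.00364, edgeR adjusted p = 0.926), and the block changed no genotype call. With the block and equal heart content Srf was at -0.44 (edgeR unadjusted p = 0.0156, adjusted p = 0.552). Myocd was then at 0.41 (edgeR unadjusted p = 0.0217, adjusted p = 0.580). Prdm16 lost its slope call in 8 of 15 alternatives, with adjusted p from 0.0171 to 0.449 over all of them.

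Leaving out single libraries, the difference in heart content ran from -0.14 to 0.42 and was negative in 3 of 8 cases, without wild-type 3 or 4 or mutant 1. Fold changes ran from -0.30 to 0.42 for Nkx2-5, -0.30 to 0.26 for Gata4, -0.49 to 0.17 for Gata5, -0.47 to 0.088 for Gata6, -0.057 to 0.17 for Mef2c, -0.47 to 0.10 for Srf, -0.10 to 0.84 for Irx4, -0.12 to 0.31 for Smyd1 and -0.076 to 0.35 for Prdm16, so all of these changed sign, while Myocd ran from 0.14 to 0.78. At equal heart content Irx4 ran from -0.039 to 0.43, Mef2c from -0.059 to 0.13, Smyd1 from -0.095 to 0.043 and Prdm16 from -0.060 to 0.21, while Nkx2-5 (-0.17 to -0.051), Gata4 (-0.33 to -0.18), Gata5 (-0.51 to -0.14), Gata6 (-0.59 to -0.27), Srf (-0.38 to -0.19) and Myocd (0.20 to 0.34) kept their sign. Shifts over 1.5 times came without mutant 4 for Nkx2-5 (-0.051), without mutant 2 for Gata6 (-0.59), and for Gata5 without mutant 2 (-0.51), mutant 1 (-0.14), wild-type 1 (-0.17) or wild-type 4 (-0.19). The correlations planned over 8 libraries were not run, because heart content forms separate sets. Of the 10 intervals, that of Mef2c was narrowest between genotypes and that of Smyd1 at equal heart content, so the size of change that could be detected differed between genes.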
